A study of Danio rerio with 15 samples.

Results

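The comparison described here asks whether the brain of female zebrafish (Danio rerio) differed from that of males in the same way with and without 40 µg/L dibromoacetonitrile (DBAN), a brominated by-product of water disinfection. It was made over every gene of the deposited count table in 12 of the 15 libraries of the study, 6 from females and 6 from males. The groups were female controls at 0 µg/L, females at 40 µg/L, male controls at 0 µg/L and males at 40 µg/L, each with 3 poly(A) RNA libraries of brain tissue taken on day 56 of exposure; the 3 libraries of females at 200 µg/L have no male counterpart and were not used. Control fish were kept in the same way without DBAN, all fish under alternating light and dark, and exposed fish had their water renewed in part or in full each day. Strain, age, the hour of collection, batches and the number of fish behind a library are not given in the sources used here, so a p-value here speaks only of the spread among libraries, which may be technical. The interaction is the change of females from 0 to 40 µg/L minus the change of males, on the log2 scale, and equals the sex difference (female minus male) at 40 µg/L minus the sex difference of the controls. A negative interaction thus means that the male level went further up, or less far down, than the female level.

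As background, the adult fish brain keeps radial glia that express brain aromatase, which turns androgens into estrogens, and laboratory zebrafish have no fixed pair of sex chromosomes, so the sex labels could not be checked against a sex-linked gene. Sex differences in a brain transcriptome can touch neuronal, glial, metabolic and translation genes alike. Immediate early genes such as fos and jun are transcription factors that neurons and other cells switch on within minutes of a stimulus, ribosomal protein genes make the parts of the translation machinery, and GABA and glutamate genes serve the main inhibitory and excitatory transmitters.

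Totals were 18365050 to 22630829 counts in female controls and 35666401 to 42122528 in male controls, so depth coincides with sex in the controls. They were 33198859 to 49388334 in females at 40 µg/L and 31576124 to 48621981 in males at 40 µg/L. A gene was called rare in a library if 8 or more of the remaining 11 lacked it, and the median count over such genes serves as a measure of complexity. This median was 8 to 10 in the controls. Replicates 1 to 3 at 40 µg/L had 25, 8 and 33.5 in females, and 39.5, 37.5 and 160 in males. Of 14971 genes, 3123 to 5172 were at 0 in a male library at 40 µg/L, against 2046 to 2558 in a female control, 1435 to 1831 in a male control and 2095 to 3218 in a female at 40 µg/L. Male replicates 1 and 3 at 40 µg/L, with 3900 and 5172, had more genes at 0 than any other library, while male replicate 2, with 3123, lay below female replicate 3 at the same dose, with 3218. A 0 in these males was read against a floor of 3 times the rare-gene median, which is 4.59, 2.49 and 14.4 CPM, counts per 1e6 counts of a library. Neuronal markers fit the label brain, with 7 of 7 detected and a summed level of 8210 to 10800 CPM in every library.

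No gene passed the test of the interaction. Of 13149 genes tested with edgeR's quasi-likelihood test, 0 (0%) had an adjusted p under 0.05, while 1909 (14.5%) had an unadjusted p under 0.05, 1044 (7.94%) with a positive and 865 (6.58%) with a negative interaction. The controls on their own differed by sex in 579 genes (4.4%), of which 304 (2.31%) were higher and 275 (2.09%) lower in females; 2679 (20.4%) had an unadjusted p under 0.05. At 40 µg/L 3 genes (0.0228%) differed by sex, all higher in females, and 1456 (11.1%) had an unadjusted p under 0.05. A fit of the 6 libraries at 40 µg/L alone called 2 genes, both lower in females, so which genes passed depended on the libraries in the fit. That the test passed in one dose group and seldom in the other does not show that the difference changed; the interaction is the test of that change, and by edgeR it called nothing. DESeq2 called 456 genes for the interaction, 270 of them positive, and limma-voom called 0 with and without sample weights.

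These counts rest on single libraries. Without male 40 µg/L replicate 2 the interaction called 369 genes. Of these, 143 were at 0 in the remaining males at 40 µg/L, against 1869 of the 13446 genes tested in that fit. Without replicate 1 or 3 of that group the interaction called 5 and 4, and without female 40 µg/L replicate 1 it called 1. The 579 control calls became 0 without male control replicate 1 or without replicate 2, 110 without male control replicate 3, 286, 2 and 155 without female control replicates 1, 2 and 3, 368 without female 40 µg/L replicate 1 and 904 without male 40 µg/L replicate 1. Every control call named below is among those lost without male control replicate 1 or 2. The 3 calls at 40 µg/L became 171, 21 and 7 without male 40 µg/L replicates 2, 1 and 3, and 0 without female control replicate 1 or 3, without male control replicate 2 or without any of the females at 40 µg/L. With all libraries thinned at random to the same depth the controls gave 605 calls and the interaction 0.

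Most sex differences of the controls kept their direction at 40 µg/L but were smaller there. Of the 579 genes that passed in the controls, 430 (74.3%) had the same direction at 40 µg/L and 149 (25.7%) the opposite one, against 53.9% and 45.3% of all tested genes. Among the 430, 427 were smaller at 40 µg/L and 3 were larger. The median size was 1.18 on the log2 scale in the controls, and at 40 µg/L it was 0.2 in the direction of the controls, with quartiles of -0.01 and 0.42. Because these genes were picked for their difference in the controls, that size is inflated by the choice, and its drop is a description. Libraries of the 2 sexes still did not overlap at 40 µg/L, in the direction of the controls, for 83 of the 579 genes, they did not overlap in the opposite direction for 7, and they overlapped for 489. Over all 13149 tested genes these counts were 868, 575 and 11706. The 149 of 579 became 388 of 781 without male 40 µg/L replicate 2, when the median at 40 µg/L in the direction of the controls was 0. They became 52 of 286, 1 of 2 and 33 of 155 without female control replicates 1, 2 and 3. Without male control replicate 3 they became 22 of 110, and without male control replicate 1 or 2 no control call was left to follow.

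**Figure D1:**
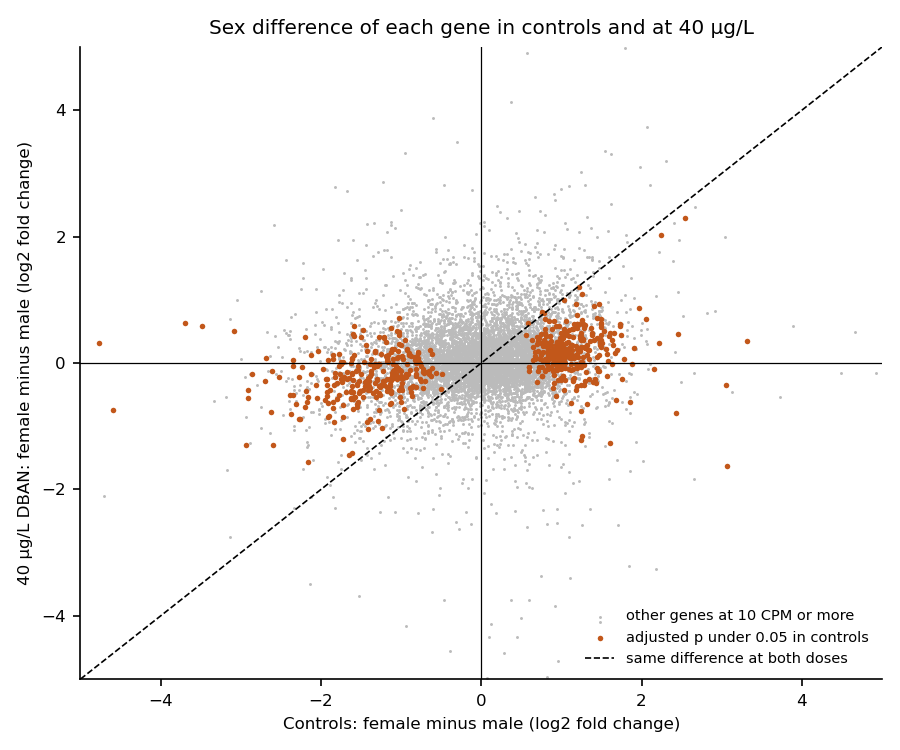
Each point is 1 of the 8388 genes whose mean reached 10 CPM in some group (33 of them lie outside the axes), with the female minus male log2 fold change of the controls on the horizontal axis and that at 40 µg/L on the vertical axis. Genes that passed in the controls (orange) lie along the horizontal axis, most of them nearer to 0 at 40 µg/L than the dashed line of equal difference.

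The median size of the sex difference was also smaller at 40 µg/L when genes were not selected for it. Among the 8388 genes with at least 10 CPM in a group, the median size of the sex difference was 0.5 in the controls and 0.29 at 40 µg/L, at a median standard error of 0.32 for both. The fit estimates the spread of a gene once for all groups. These equal errors therefore do not show equal precision at the 2 doses. Over the alternative settings the 2 median sizes ran from 0.44 to 0.54 and from 0.28 to 0.35. Over all 13149 tested genes, the sexes did not overlap in 5246 (39.9%) in the controls and in 1443 (11%) at 40 µg/L; 393 genes (2.99%) kept the order of the sexes at both doses and 157 (1.19%) had it fully opposite. Across the 8388 genes with at least 10 CPM the 2 sex differences correlated with Pearson's r = 0.14 and Spearman's rho = 0.17; genes are not independent replicates, and the 2 differences share no library. The spread of the libraries differed as well, and its part in the counts of genes without overlap was not tested. Over the same 8388 genes, the root mean square log2 distance between libraries of 1 group was 0.77 to 0.92 in female controls, 0.7 to 0.72 in male controls, 0.95 to 1.02 in females at 40 µg/L and 1.3 to 1.88 in males at 40 µg/L. Between group means it was 0.84 for the sexes in the controls and 0.88 at 40 µg/L. The standard deviation of the fitted sex difference over these 8388 genes was 0.85 in the controls and 0.78 at 40 µg/L. Both measures also hold the spread of the libraries behind each mean. Neither therefore shows whether the sexes were closer at 40 µg/L over these genes together.

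The distance between the doses was larger in males. The root mean square log2 distance between the means at 0 and 40 µg/L was 0.73 in females and 1.33 in males, and in 8967 (68.2%) of all tested genes the male difference between the doses was larger in size than the female one. The males at 40 µg/L were also the group with the widest spread; its part in this was not tested. Among the 1785 genes with an unadjusted interaction p under 0.05 and at least 1 CPM in a group, the sex difference was of opposite direction at 40 µg/L in 1286 (72%), smaller in 376 (21.1%) and larger in 123 (6.89%); of all tested genes 45.3%, 31.9% and 22.8% fell in these classes. These classes are made from the same values as the interaction and are a description. In 313 of the 1909 genes with an unadjusted interaction p under 0.05 all 3 males at 40 µg/L were at 0. This was so in 765 of all 13149 tested genes. All 313 had a positive interaction, so they are among the 1044 positive ones.

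The genes with the clearest sex difference in the controls are given here by library. They were picked for that difference, so a smaller one at 40 µg/L is in part due to the choice and is a description. pleca encodes plectin, which links cytoskeletal filaments. It had 590, 861 and 526 CPM in female controls and 199, 200 and 239 in male controls, and then 546, 401 and 532 in females and 472, 390 and 627 in males at 40 µg/L. The sexes were apart in the controls and mixed at 40 µg/L, with the females overlapping with their controls and the males above theirs. Its sex difference was 1.63 ± 0.23 (log2 ± SE, adjusted p = 0.0138, edgeR) in the controls and -0.01 ± 0.22 (adjusted p = 1) at 40 µg/L, and its interaction was -1.64 ± 0.32 (adjusted p = 0.142). In bulk tissue such as this, a change in the share of cells that express a gene and a change in RNA per cell cannot be told apart.

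kat5a, a histone acetyltransferase gene, had 322, 484 and 411 CPM in female controls, 151, 147 and 170 in male controls, 287, 272 and 272 in females at 40 µg/L and 259, 176 and 173 in males at 40 µg/L. Females stayed above males at both doses, and the difference was 1.38 ± 0.19 in the controls (adjusted p = 0.0138) and 0.45 ± 0.19 at 40 µg/L (adjusted p = 0.422). tmsb4x, which encodes the actin-binding thymosin beta, had 2780, 2610 and 2460 CPM in female controls, 1170, 1130 and 1080 in male controls, 958, 1400 and 912 in females at 40 µg/L and 833, 662 and 648 in males at 40 µg/L. Its females were also above its males at both doses, and within each sex every library at 40 µg/L was below the controls. The other 3 of the 6 genes with the smallest p among those higher in female controls were setd4 (a lysine methyltransferase), fntb (a farnesyltransferase subunit) and cops3 (a COP9 signalosome subunit). Their sex differences were 1.73 ± 0.23, 1.56 ± 0.22 and 1.25 ± 0.18 in the controls and 0.58 ± 0.23, 0.22 ± 0.22 and -0.06 ± 0.18 at 40 µg/L.

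Among genes lower in female controls, gapdhs, a paralogue of the glycolytic enzyme GAPDH, had 1400, 1180 and 1100 CPM in female controls and 2740, 2140 and 2580 in male controls. At 40 µg/L it had 1470, 1710 and 1610 CPM in females and 1510, 1930 and 1750 in males. The libraries of the sexes were apart in the controls and overlapped at 40 µg/L, with females higher and males lower than their controls. Its sex difference was -1.02 ± 0.15 (adjusted p = 0.0138, edgeR) in the controls and -0.11 ± 0.15 at 40 µg/L, and its interaction 0.91 ± 0.22 (adjusted p = 0.179). The other 5 genes of this rank were atp1a3a (the neuronal sodium pump), slc6a1a (a GABA transporter), ncam1a (a neural adhesion molecule), zbtb16a (a zinc finger transcription factor) and gpr37b (an orphan receptor). Their sex differences were -1.3 ± 0.2, -1.59 ± 0.22, -1.91 ± 0.28, -2.37 ± 0.32 and -2.62 ± 0.37 in the controls, all at an adjusted p of 0.0138, and -0.25 ± 0.19, -0.53 ± 0.22, -0.85 ± 0.27, -0.81 ± 0.31 and -0.77 ± 0.35 at 40 µg/L. None of the 12 genes had the opposite order of the sexes at 40 µg/L without overlap. The genes outside this pattern are the 3 with a larger difference at 40 µg/L, usp2a, disp2 and spty2d1, which were named after their values were seen. Their sex differences were 0.58 ± 0.15, 0.76 ± 0.19 and 0.78 ± 0.19 in the controls and 0.63 ± 0.15, 0.8 ± 0.19 and 0.79 ± 0.19 at 40 µg/L.

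A few genes called in the controls had the opposite order of the sexes at 40 µg/L without overlap. These 7 genes, named for that reason after their values were seen, were pi4kab, ddit3, zgc:65851, rtn4a, syt14b, elac1 and jun. For comparison, 157 of all tested genes (1.19%) were fully opposite, 57 (0.433%) with females higher in the controls and 100 (0.761%) with females lower. The 157 come from the 5246 tested genes whose sexes did not overlap in the controls. Of the 579 control calls 578 were such genes, so the 7 are no excess over that background. pi4kab, which encodes a phosphatidylinositol kinase, had 18.8, 23.6 and 34.6 CPM in female controls, 56.6, 64.8 and 57.4 in male controls, 40.2, 44.9 and 37.8 in females at 40 µg/L and 33.7, 33.1 and 26.6 in males at 40 µg/L. Females were below males in the controls and above them at 40 µg/L. Its interaction was 1.61 ± 0.34 (adjusted p = 0.152, edgeR). rtn4a, a reticulon gene, and elac1, a tRNA processing gene, are listed on alternative contigs, where reads can be shared with another copy, so their values are uncertain. Their interactions were -4.69 ± 0.99 and -2.48 ± 0.45. The 11.6 CPM of rtn4a in male 40 µg/L replicate 3 also lay under the floor of 14.4 CPM of that library. Its 2.04 CPM in female 40 µg/L replicate 3 lay under the floor of 2.31 CPM there, so its order at 40 µg/L is uncertain.

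Of the 6 genes with the smallest p among negative interactions, ddit3 is a stress response gene and fosab, jun, btg2 and junbb are early response genes, while elac1 is neither; larger negative values at a higher p occurred, as in rtn4a. ddit3 encodes CHOP, a transcription factor of the endoplasmic reticulum and integrated stress responses, and is listed at chromosome 6, 58915889 to 58919086, on a genome build that is not given. It had 492, 669 and 509 CPM in female controls, 222, 311 and 232 in male controls, 960, 638 and 835 in females at 40 µg/L and 1360, 1230 and 1180 in males at 40 µg/L. Females were above all males in the controls and below all males at 40 µg/L. Its sex difference was 1.12 ± 0.19 (adjusted p = 0.0141, edgeR) in the controls and -0.63 ± 0.19 (adjusted p = 0.289) at 40 µg/L. The interaction of ddit3 was -1.76 ± 0.27 with an adjusted p of 0.113, which over the alternatives ran from 3.34e-06 with DESeq2 to 0.31; without male 40 µg/L replicate 2 it was -1.77 with an adjusted p of 0.0214.

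fosab (chromosome 20, 46552313 to 46554424) encodes a Fos transcription factor that is induced by neuronal activity. It had 48.2, 68.1 and 108 CPM in female controls, 31.1, 22.9 and 14.6 in male controls, 69.3, 181 and 246 in females at 40 µg/L and 1500, 828 and 599 in males at 40 µg/L. The males at 40 µg/L stood far above every other library, while the females at 40 µg/L overlapped with their controls. The sex difference of fosab was 1.71 ± 0.49 in the controls and -2.56 ± 0.5 at 40 µg/L, neither past the test (adjusted p = 0.0699 and 0.171). Its interaction was -4.27 ± 0.7 (adjusted p = 0.142, edgeR), with a range of 5.59e-08 (DESeq2) to 0.328 over the alternatives, and -4.37 with an adjusted p of 0.0233 without male 40 µg/L replicate 2.

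jun (chromosome 20, 15552747 to 15554603), a partner of Fos in the AP-1 factor, had 348, 347 and 318 CPM in female controls and 110, 155 and 158 in male controls. At 40 µg/L it had 329, 194 and 433 CPM in females and 1070, 541 and 527 in males. Females overlapped between the doses, and males were below them in the controls and above them at 40 µg/L. Its sex difference was 1.26 ± 0.31 (adjusted p = 0.0433, edgeR) in the controls and -1.16 ± 0.31 (adjusted p = 0.251) at 40 µg/L; its interaction was -2.42 ± 0.44 (adjusted p = 0.142), and -2.58 with an adjusted p of 0.0233 without male 40 µg/L replicate 2. junbb, a relative of jun, had 269, 373 and 609 CPM in female controls, 146, 173 and 188 in male controls, 580, 726 and 1010 in females at 40 µg/L and 2960, 1530 and 1260 in males at 40 µg/L. btg2, an antiproliferative early response gene, had 40.9, 87.6 and 95.3 CPM in female controls, 26.7, 41.1 and 34 in male controls, 56.6, 85.5 and 123 in females at 40 µg/L and 516, 240 and 224 in males at 40 µg/L. In both genes the males at 40 µg/L were above all other libraries, and the interactions were -2.61 ± 0.49 and -3.02 ± 0.56.

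Of the 44 immediate early genes of the list tested, 20 had a negative interaction at an unadjusted p under 0.05 and 0 a positive one, against 6.58% and 7.94% of all tested genes. The list's median sex difference was 0.39 in the controls, with 31 of 44 higher in females, and -0.43 at 40 µg/L, with 10 of 44 higher in females. The median interaction was -0.87, beside 0.09 over all tested genes, and -0.98 to -0.63 when single libraries were left out. The summed level of the list was 2680 to 5160 CPM in female controls, 2010 to 2340 in male controls, 3780 to 5400 in females at 40 µg/L and 6940 to 14400 in males at 40 µg/L, where replicate 1 was the highest. Male libraries thus went from the lowest to the highest sums, and those of females overlapped between the doses. Of the 44, 2 genes passed in the controls, both higher in females, against 2.31% of all tested genes. They were jun and ier2b, an early response gene whose sex difference was 1.61 ± 0.39 (adjusted p = 0.0399, edgeR) in the controls and -1.27 ± 0.39 at 40 µg/L. The activity-dependent factor npas4a had 111, 161 and 929 CPM in female controls, so 1 library carried most of that group's level. Its males had 117, 113 and 65.2 CPM in the controls and 555, 416 and 273 at 40 µg/L, and its interaction was -3.57 ± 0.95 (adjusted p = 0.179). Male replicates 1 and 3 at 40 µg/L are also the libraries with the most genes at 0; the part of this in the levels was not tested.

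**Figure D2:**
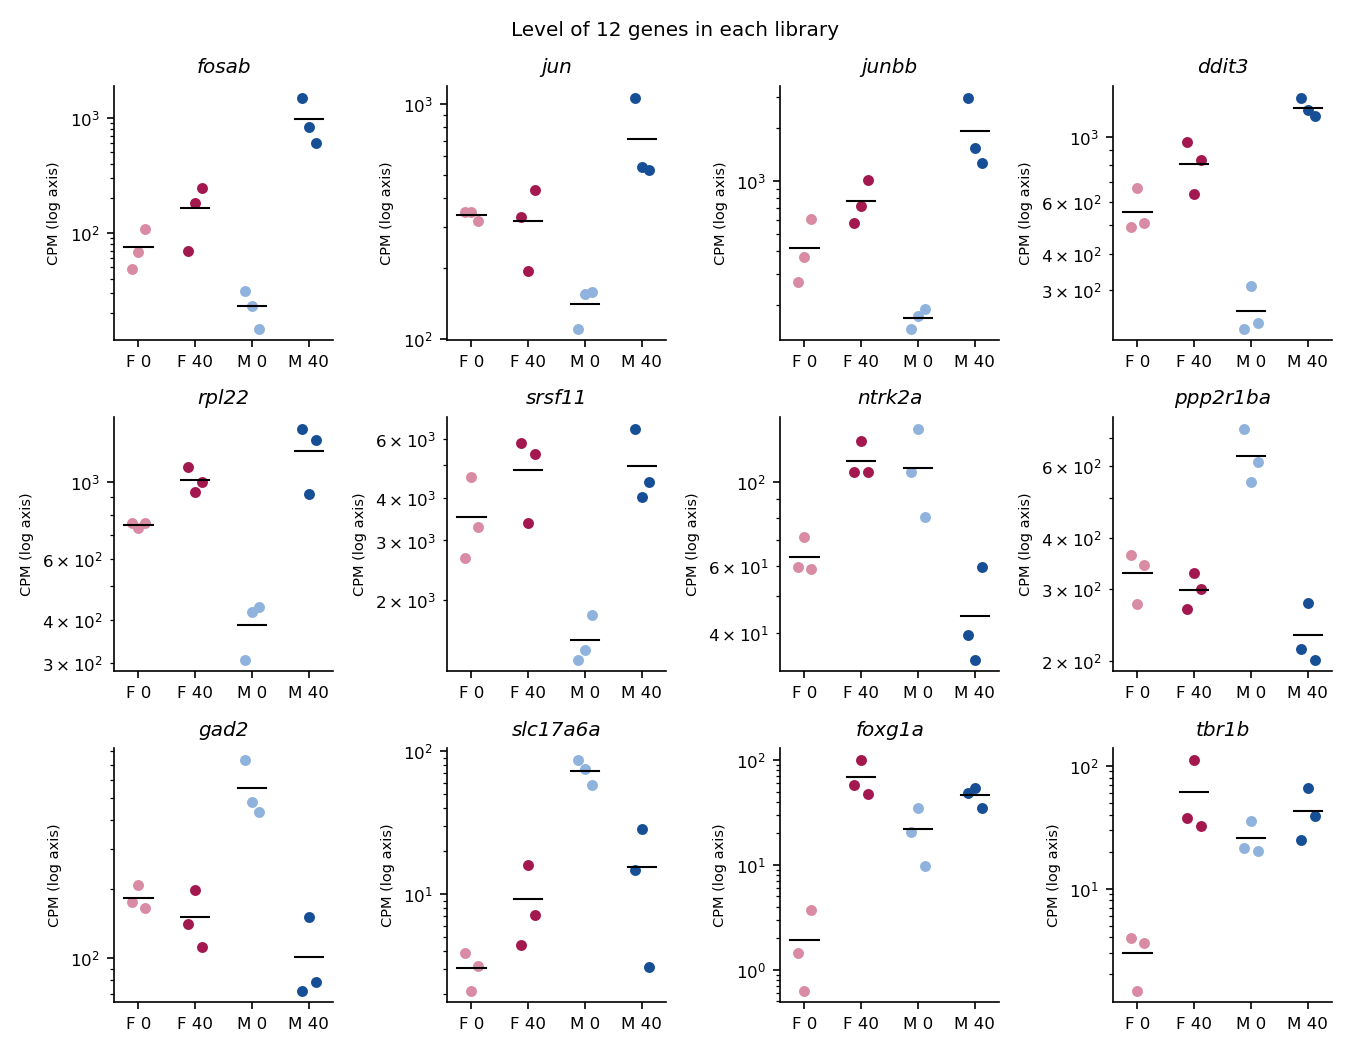
CPM on a log axis in each of the 12 libraries for 12 genes, with F for females, M for males, 0 and 40 for the dose in µg/L, and a bar at the group mean. In fosab, jun, junbb and ddit3 the males go from the lowest group in the controls to the highest at 40 µg/L; in gad2 and ppp2r1ba they go from the highest to the lowest by mean.

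Among positive interactions, ntrk2a (chromosome 8, 49778486 to 49870676) encodes a TrkB receptor for the neurotrophin BDNF. It had 59.4, 71.6 and 58.7 CPM in female controls, 106, 138 and 80.9 in male controls, 106, 128 and 106 in females at 40 µg/L and 39.4, 33.9 and 59.6 in males at 40 µg/L. Females were below males in the controls and above them at 40 µg/L, and the libraries of the 2 doses did not overlap in either sex. The sex difference of ntrk2a was -0.78 ± 0.25 in the controls (adjusted p = 0.089) and 1.36 ± 0.25 at 40 µg/L (adjusted p = 0.154). Its interaction was 2.13 ± 0.35 (adjusted p = 0.142, edgeR), with a range of 3.78e-05 (DESeq2) to 0.323 over the alternatives; it was 1.97 with an adjusted p of 0.0233 without male 40 µg/L replicate 2 and 2.41 with 0.0473 without replicate 3.

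ppp2r1ba, a scaffold subunit gene of protein phosphatase 2A, had 363, 276 and 343 CPM in female controls, 739, 546 and 612 in male controls, 267, 328 and 300 in females at 40 µg/L and 214, 277 and 201 in males at 40 µg/L. syt14b, of the synaptotagmin family, had 41, 39.5 and 31.3 CPM in female controls, 57.5, 80.1 and 89.8 in male controls, 21.6, 24.5 and 32.9 in females at 40 µg/L and 14.8, 16 and 17.5 in males at 40 µg/L. Both were higher in male controls than in any other library. Their interactions were 1.32 ± 0.25 and 1.73 ± 0.34 (adjusted p = 0.142 for each, edgeR).

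The genes with the smallest interaction p of all, zdhhc3a and asah1a, were listed at 0 in every male at 40 µg/L, and so was pcyt1bb, which ranked lower. zdhhc3a, a palmitoyltransferase gene, had 4.17, 3.3 and 6.85 CPM in female controls, 13.1, 7.94 and 9.54 in male controls and 4.71, 5.76 and 2.57 in females at 40 µg/L. asah1a, which encodes the lysosomal acid ceramidase, had 7.3, 14.4 and 10.3 CPM in female controls, 11.4, 5.9 and 3.45 in male controls and 3.84, 8.8 and 5.74 in females at 40 µg/L. pcyt1bb, for a phosphatidylcholine synthesis enzyme, had 2.54, 3.41 and 2.92 CPM in female controls, 0.486, 0.306 and 1.01 in male controls and 10.2, 14.3 and 4.59 in females at 40 µg/L. These are the 3 genes called between the sexes at 40 µg/L (adjusted p = 0.0215, 0.0215 and 0.0483, edgeR). In the females at 40 µg/L all of their levels lie under the floor of 14.4 CPM of male replicate 3 and above that of 2.49 CPM of male replicate 2, and they lie on both sides of that of 4.59 CPM of male replicate 1. The 0 in replicate 3 therefore cannot be told from the female levels, and no fold is given. All 3 calls were lost with counts divided by 4 and after thinning to equal depth.

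Ribosomal protein genes were mostly higher in females in the controls and mostly lower in females at 40 µg/L. Of 88 cytosolic ribosomal protein genes, 79 were higher in females in the controls and 13 at 40 µg/L; the sexes did not overlap with females higher in 54 and 2 of them, and with females lower in 3 and 16. Of all tested genes 19% and 6.97% did not overlap with females higher, and 20.9% and 4% with females lower. In the controls 8 passed as higher and 1 as lower in females, against 2.31% and 2.09% of all tested genes. The median sex difference was 0.55 in the controls and -0.28 at 40 µg/L, the median interaction -0.81, and -0.92 to -0.61 when single libraries were left out. The interaction had an unadjusted p under 0.05 and a negative sign in 57 genes and a positive sign in 2, against 6.58% and 7.94% of all tested genes. The summed level of the list was 60900 to 72400 CPM in female controls, 36000 to 53100 in male controls, 95300 to 129000 in females at 40 µg/L and 125000 to 171000 in males at 40 µg/L. Both sexes had higher sums at 40 µg/L than in the controls, and the male libraries lay below the female ones in the controls and mostly above them at 40 µg/L.

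rpl22, a large subunit protein gene, had 758, 737 and 760 CPM in female controls, 307, 421 and 435 in male controls, 1100, 931 and 1000 in females at 40 µg/L and 1420, 922 and 1320 in males at 40 µg/L. Females were above males in the controls, and the sexes overlapped at 40 µg/L. Its sex difference was 0.96 ± 0.18 (adjusted p = 0.0192, edgeR) in the controls and -0.27 ± 0.18 at 40 µg/L, and its interaction -1.23 ± 0.26 (adjusted p = 0.152). rplp2, of the same subunit, had sex differences of 1.02 ± 0.21 in the controls (adjusted p = 0.024) and -0.2 ± 0.21 at 40 µg/L. rplp0, the member with the highest CPM, had 3130, 2760 and 2900 CPM in female controls, 1730, 2500 and 2450 in male controls, 6040, 4420 and 6290 in females at 40 µg/L and 8990, 6410 and 8000 in males at 40 µg/L. Its sex difference was 0.4 ± 0.19 in the controls and -0.48 ± 0.19 at 40 µg/L, neither past the test.

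Splicing and mitochondrial ribosomal genes had smaller median sex differences at 40 µg/L, in the direction of the controls. Of 74 splicing and RNA processing genes, 62 were higher in females in the controls and 51 at 40 µg/L, with median sex differences of 0.52 and 0.11; 8 passed in the controls, all higher in females, against 2.31% of all tested genes. The median at 40 µg/L was 0.05 without female 40 µg/L replicate 1 and 0.25 without male 40 µg/L replicate 1, the lowest and highest when single libraries were left out. The sexes did not overlap with females higher in 44 of these genes in the controls and in 9 at 40 µg/L, against 19% and 6.97% of all tested genes. The interaction had an unadjusted p under 0.05 in 13 with a negative and 2 with a positive sign, against 6.58% and 7.94%. srsf11, a splicing factor gene, had 2660, 4630 and 3280 CPM in female controls, 1330, 1420 and 1810 in male controls, 5810, 3370 and 5390 in females at 40 µg/L and 6430, 4030 and 4480 in males at 40 µg/L. Females were above males in the controls, and the sexes were mixed at 40 µg/L, with a sex difference of 1.21 ± 0.26 (adjusted p = 0.0283, edgeR) in the controls and -0.04 ± 0.26 at 40 µg/L. prpf38b, a spliceosome component, had sex differences of 1.09 ± 0.23 in the controls (adjusted p = 0.0245) and -0.1 ± 0.23 at 40 µg/L. Of 73 mitochondrial ribosomal genes 65 were higher in females in the controls and 46 at 40 µg/L, with medians of 0.52 and 0.14, the latter 0.35 without male 40 µg/L replicate 1. The 99 translation factors and tRNA synthetases had medians of 0.16 and 0.05, the latter -0.02 to 0.11 when single libraries were left out, with 63 and 58 higher in females. Among them eif4g2a, an initiation factor gene, had the smallest interaction p, with 1.25 ± 0.33 (adjusted p = 0.179), and eef1a1l1, an elongation factor gene, the highest CPM, with an interaction of -0.35 ± 0.23.

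**Figure D3:**
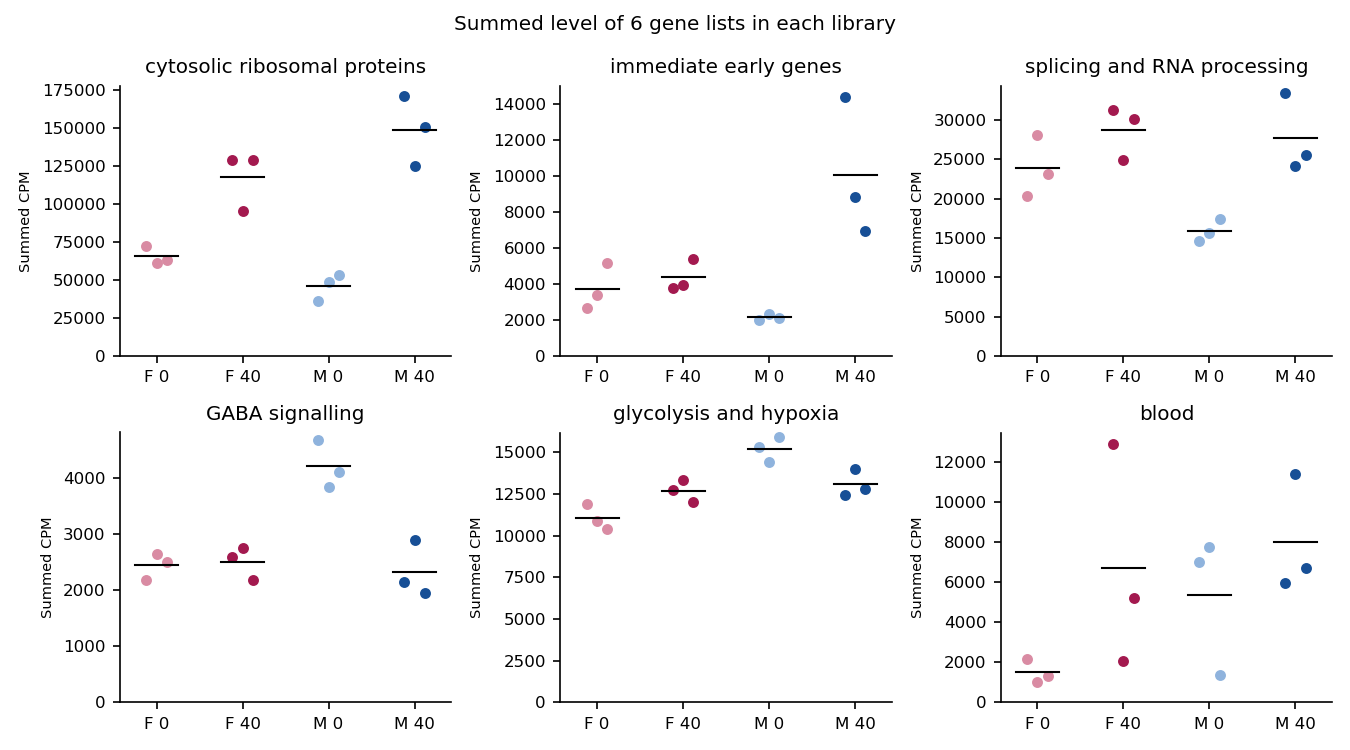
Summed CPM of 6 gene lists in each of the 12 libraries, with F for females, M for males, 0 and 40 for the dose in µg/L, and a bar at the group mean; the axes start at 0. Sums of ribosomal, splicing and immediate early genes are lowest in male controls, and sums of GABA and glycolysis genes are highest there.

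GABA, glutamate, synaptic and ion channel genes were mostly lower in females in the controls and had median sex differences near 0 at 40 µg/L. Monoamine and neuropeptide genes were mostly lower in females at both doses. Their medians at 40 µg/L ran from -0.59 to 0.1 and from -0.42 to 0.05 when single libraries were left out. These lists are thus not shown to differ from the former at 40 µg/L. Of 14 GABA signalling genes, 2 were higher in females in the controls and 9 at 40 µg/L, and 6 passed in the controls, all lower in females, against 2.09% of all tested genes. These were gad2 and gad1b for the enzymes that make GABA, abat for the one that breaks it down, slc32a1 for vesicular loading, and slc6a1a and slc6a1b for reuptake. The median sex difference of the 14 was -1.14 in the controls and 0.11 at 40 µg/L, with a median interaction of 1.01 and of 0.95 to 1.27 when single libraries were left out. The interaction was positive at an unadjusted p under 0.05 in 7 and negative in 0, against 7.94% and 6.58% of all tested genes. Their summed level was 2190 to 2640 CPM in female controls, 2180 to 2760 in females at 40 µg/L, 3850 to 4680 in male controls and 1960 to 2900 in males at 40 µg/L. Male controls were apart from the other 3 groups, which overlapped with each other.

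gad2 (chromosome 24, 6133145 to 6158933) had 175, 208 and 166 CPM in female controls, 736, 482 and 434 in male controls, 141, 199 and 112 in females at 40 µg/L and 72, 152 and 78.5 in males at 40 µg/L. The male controls were above all other libraries, and the sexes overlapped at 40 µg/L. Its sex difference was -1.59 ± 0.31 (adjusted p = 0.0196, edgeR) in the controls and 0.58 ± 0.31 (adjusted p = 0.521) at 40 µg/L. Its interaction was 2.17 ± 0.44 with an adjusted p of 0.142, which ran from 0.000402 (DESeq2) to 0.389 over the alternatives; without male 40 µg/L replicate 2 it was 2.59 with an adjusted p of 0.0159. gad1b had 404, 445 and 448 CPM in female controls, 1110, 922 and 1070 in male controls, 559, 606 and 374 in females at 40 µg/L and 329, 626 and 439 in males at 40 µg/L. As in gad2, male controls were above all other libraries and the sexes overlapped at 40 µg/L. The lowest group mean was that of female controls, whereas in gad2 it was that of males at 40 µg/L. The interaction of gad1b was 1.4 ± 0.32 (adjusted p = 0.174, edgeR). gabrb2a, a GABA receptor subunit gene and the list's member with the highest CPM, differed from these, at 833, 1000 and 916 CPM in female controls and 696, 593 and 726 in male controls, with an interaction of -0.18 ± 0.24.

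Of 32 AMPA, NMDA and metabotropic glutamate signalling genes, 9 were higher in females in the controls and 18 at 40 µg/L, and 8 passed in the controls, all lower in females, against 2.09% of all tested genes. The medians were -0.73 in the controls and 0.04 at 40 µg/L, the latter -0.03 with upper-quartile scaling and -0.05 to 0.21 when single libraries were left out. A positive interaction at an unadjusted p under 0.05 was found in 12 genes and a negative one in 0, against 7.94% and 6.58% of all tested genes. slc17a6a, a vesicular glutamate transporter gene, had 3.85, 2.1 and 3.16 CPM in female controls, 87.4, 74.5 and 57.8 in male controls, 4.43, 15.9 and 7.16 in females at 40 µg/L and 14.8, 28.4 and 3.07 in males at 40 µg/L. Male controls were again apart from all other libraries. Its sex difference was -4.59 ± 0.73 (adjusted p = 0.0138, edgeR) in the controls and -0.75 ± 0.63 at 40 µg/L, and its interaction 3.84 ± 0.92 (adjusted p = 0.179). The 3.07 CPM of male 40 µg/L replicate 3 lay under the floor of 14.4 CPM of that library, so this level is uncertain. The receptor subunit genes grin1a, grin2bb and gria1b and the metabotropic receptor gene grm5a had sex differences of -1.43 ± 0.34, -2.35 ± 0.45, -2.13 ± 0.38 and -1.8 ± 0.3 in the controls (adjusted p = 0.0374, 0.0192, 0.0163 and 0.0139). At 40 µg/L they were 0.19 ± 0.34, -0.05 ± 0.43, -0.18 ± 0.36 and -0.32 ± 0.29. grin1b, the copy of grin1a with the list's highest CPM, did not share this, at 0.37 ± 0.19 in the controls and 0.12 ± 0.19 at 40 µg/L; reads that fit both copies could be split between them.

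The 48 synaptic vesicle and postsynaptic genes had median sex differences of -0.55 in the controls and 0.04 at 40 µg/L, and the 36 voltage-gated ion channel genes of -0.71 and 0.03. With upper-quartile scaling the medians at 40 µg/L were 0 and -0.04, and without single libraries they ran from -0.01 to 0.16 and from 0.01 to 0.26. Females were higher in 13 and then 27 of the synaptic genes and in 6 and then 19 of the channel genes. In the controls 7 synaptic and 3 channel genes passed, all lower in females, against 2.09% of all tested genes; the interaction was positive at an unadjusted p under 0.05 in 13 and 7 and negative in 0 of either, against 7.94% and 6.58% of all tested genes. snap25a, for a protein of vesicle fusion, had 2990, 2400 and 2680 CPM in female controls, 3900, 3820 and 4200 in male controls, 1980, 2740 and 2250 in females at 40 µg/L and 2240, 3100 and 2140 in males at 40 µg/L. Male controls were above the rest, with an interaction of 0.46 ± 0.25 (adjusted p = 0.401). rab3ab, for a vesicle GTPase, had an interaction of 2.69 ± 0.64 (adjusted p = 0.179). Its 3.49 CPM in male 40 µg/L replicate 3 lay under the floor of 14.4 CPM of that library. The channel genes with the smallest interaction p and the highest CPM were cacna2d1a, for an auxiliary calcium channel subunit, and scn8aa, for a sodium channel, with interactions of 3.69 ± 1.02 (adjusted p = 0.179) and 0.49 ± 0.26. In males at 40 µg/L cacna2d1a had 0.774, 1.64 and 0.301 CPM. All are under the floors of these libraries, 4.59, 2.49 and 14.4 CPM, so the size of its interaction is uncertain. Of 34 monoamine and cholinergic signalling genes, 10 were higher in females in the controls and 13 at 40 µg/L, with medians of -0.39 and -0.23; the latter was -0.59 without female 40 µg/L replicate 2 and 0.1 without replicate 3, and the former -1 without female control replicate 1. An interaction at an unadjusted p under 0.05 was positive in 1 of them and negative in 2. Of 34 neuropeptide and prohormone genes, 9 were higher in females in the controls and 13 at 40 µg/L, with medians of -0.42 and -0.11; the latter was -0.42 without female 40 µg/L replicate 1 and 0.05 without replicate 3. Here the interaction was positive in 3 and negative in 2 at an unadjusted p under 0.05; for both of these lists the counts are near the 7.94% and 6.58% of all tested genes or below them. Beside these lists, the summed neuronal markers were 9470 to 10400 CPM in female controls, 10300 to 10800 in male controls, 9030 to 9430 in females at 40 µg/L and 8210 to 9740 in males at 40 µg/L. Their lowest, median and highest values were likewise largest in male controls (median 10500 CPM). In both sexes these sums were lower at 40 µg/L than in the controls, without overlap. The part of the neuronal markers in the result was not tested.

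Glycolysis and hypoxia genes were also mostly lower in females in the controls. Of 42, 8 were higher in females in the controls and 23 at 40 µg/L, and 7 passed in the controls as lower in females, against 2.09% of all tested genes. The medians were -0.61 and 0.1, the latter -0.03 without male 40 µg/L replicate 3. The interaction was positive at an unadjusted p under 0.05 in 10 and negative in 0, against 7.94% and 6.58% of all tested genes. hif1ab, a hypoxia-inducible factor gene, had 261, 233 and 233 CPM in female controls, 355, 370 and 408 in male controls, 291, 317 and 288 in females at 40 µg/L and 233, 292 and 251 in males at 40 µg/L. The sexes were apart in the controls and overlapped at 40 µg/L, with an interaction of 0.85 ± 0.19 (adjusted p = 0.16, edgeR). slc2a3a, for a glucose transporter, and pgam1b, for a glycolytic mutase, had sex differences of -1.16 ± 0.22 and -1.22 ± 0.22 in the controls (adjusted p = 0.0192 and 0.0174) and of 0.12 ± 0.22 and -0.34 ± 0.22 at 40 µg/L. aldocb, an aldolase gene and the list's member with the highest CPM, had an interaction of 0.06 ± 0.18.

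Telencephalon genes mark the front part of the forebrain. Here the median difference between the doses was 1.14 in females and 0.47 in males. Of 32 genes, 3 were higher in females in the controls and 26 at 40 µg/L, with median sex differences of -0.79 and 0.3 and a median interaction of 1.08, and of 1.01 to 1.25 when single libraries were left out. The interaction was positive at an unadjusted p under 0.05 in 12 and negative in 0, against 7.94% and 6.58% of all tested genes, and 3 genes passed in the controls, all lower in females, against 2.09%. The median at 40 µg/L was 0.53 without female 40 µg/L replicate 3. foxg1a (chromosome 17, 29117027 to 29119337), a defining transcription factor of the telencephalon, had 1.45, 0.629 and 3.73 CPM in female controls, 20.5, 35.2 and 9.86 in male controls, 58.3, 101 and 47.2 in females at 40 µg/L and 48.9, 53.8 and 35.1 in males at 40 µg/L. Female controls were below all other libraries, and the sexes overlapped at 40 µg/L. The floors of the female controls were 0.972 to 1.57 CPM. The 0.629 CPM of female control replicate 2 lay under the floor of 1.57 CPM of that library, so the size of the control difference is uncertain. The sex difference of foxg1a was -3.48 ± 0.62 (adjusted p = 0.0162, edgeR) in the controls and 0.58 ± 0.55 at 40 µg/L. Its interaction was 4.06 ± 0.81 with an adjusted p of 0.142, which ran from 0.000175 (DESeq2) to 0.389 over the alternatives; without male 40 µg/L replicate 2 it was 4.2 with an adjusted p of 0.0411.

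tbr1b, a transcription factor gene of excitatory pallial neurons, had 3.94, 1.47 and 3.61 CPM in female controls, 21.4, 35.1 and 20.1 in male controls, 37.5, 112 and 32.3 in females at 40 µg/L and 24.8, 65.2 and 38.9 in males at 40 µg/L. Female controls were again below all other libraries, and its interaction was 3.58 ± 0.76 (adjusted p = 0.152, edgeR). The 1.47 CPM of female control replicate 2 lay under the floor of 1.57 CPM of that library, so this level is uncertain. bcl11ba, another neuronal transcription factor gene, followed the GABA genes instead, at 58.9, 76.9 and 65.7 CPM in female controls, 199, 213 and 173 in male controls, 92.9, 121 and 86.2 in females at 40 µg/L and 88.9, 156 and 78.4 in males at 40 µg/L. zic1, the list's member with the highest CPM and also a marker of dorsal hindbrain, went against the list, with a sex difference of 0.89 ± 0.3 in the controls and 0.09 ± 0.3 at 40 µg/L. All 10 telencephalon markers used to check the tissue were detected, and their summed level was 197 to 311 CPM in female controls, 297 to 430 in male controls, 828 to 1110 in females at 40 µg/L and 590 to 819 in males at 40 µg/L. The 11 markers of cerebellum and hindbrain, of which 1 was at 0 in every library, summed to 1770 to 2650, 1620 to 1870, 1380 to 2190 and 1300 to 2250 CPM in the same order. The telencephalon markers thus did not overlap between the doses in either sex. Other marker sums differed as well. Hypothalamus markers summed to 172 to 387, 126 to 655, 342 to 1170 and 932 to 1240 CPM in that order. Skin and connective tissue markers summed to 156 to 210, 102 to 143, 253 to 502 and 366 to 629 CPM. The former did not overlap between the doses in males, the latter in either sex. Skeletal muscle markers, at 32.8 to 50.7, 19.7 to 30, 54.2 to 64.8 and 53.3 to 90.1 CPM, did not overlap in either sex. Sums of microglia, oligodendrocyte and ovary markers did not overlap between the doses in females only, and those of radial glia in males only. Neuronal sums did not overlap between the doses in either sex. Between the sexes of the controls, radial glia markers did not overlap, at 2300 to 2540 CPM in females and 2760 to 3470 in males. Pineal and eye, testis, skeletal muscle and skin markers did not overlap there either, with females higher. At 40 µg/L the sexes did not overlap in telencephalon markers, higher in females, and oligodendrocyte markers, lower in females. The part of the regions and tissues held by each library in the results was not tested.

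**Figure D4:**
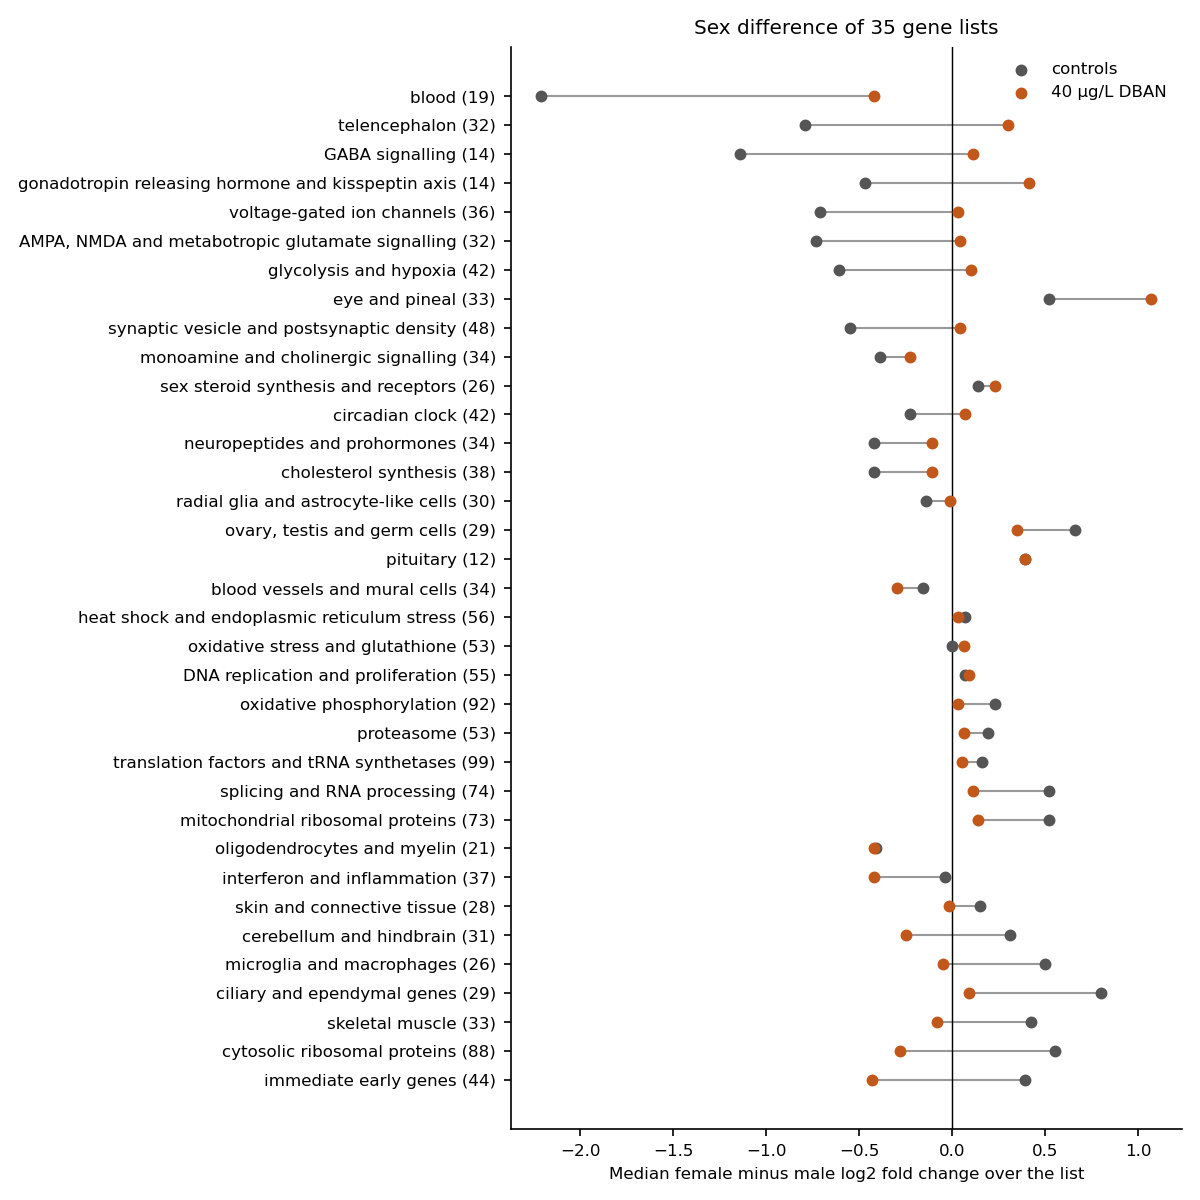
Median female minus male log2 fold change of 35 gene lists, with the number of tested genes in parentheses, in the controls (grey) and at 40 µg/L (orange), ordered by the median interaction from positive at the top to negative at the bottom. Lists such as GABA signalling (-1.14 and 0.11) cross 0 from the left, and ribosomal proteins (0.55 and -0.28) and immediate early genes (0.39 and -0.43) from the right, while myelin genes are at -0.41 and -0.42, the latter -0.73 to -0.19 when single libraries were left out.

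Oligodendrocyte and myelin genes were mostly lower in females at both doses. Of 21 oligodendrocyte and myelin genes, 5 were higher in females in the controls and 5 at 40 µg/L, with medians of -0.41 and -0.42. The median at 40 µg/L was -0.73 without female 40 µg/L replicate 2 and -0.19 without male 40 µg/L replicate 2, so that the sizes at the 2 doses are not shown to be alike. The median interaction was -0.33, and 0.02 without female control replicate 1; 4 genes had a negative and 0 a positive interaction at an unadjusted p under 0.05, against 6.58% and 7.94% of all tested genes. plp1b, for a major myelin protein, had 560, 518 and 413 CPM in female controls, 613, 670 and 604 in male controls, 322, 390 and 250 in females at 40 µg/L and 413, 732 and 413 in males at 40 µg/L. Females were below males at both doses, with sex differences of -0.34 ± 0.23 and -0.69 ± 0.24. zwi, the list's member with the smallest interaction p, had an interaction of -1.29 ± 0.36 (adjusted p = 0.179).

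Of 26 sex steroid genes, 15 were higher in females at each dose, and the median sex differences were 0.14 in the controls and 0.23 at 40 µg/L. When single libraries were left out these ran from -0.1 to 0.21 and from 0.16 to 0.61, the lowest without female control replicate 1 and the highest without male 40 µg/L replicate 1. The median interaction was 0.35, positive in 19 of 26 genes; 2 had a positive and 0 a negative interaction at an unadjusted p under 0.05, against 7.94% and 6.58% of all tested genes, so the count of 2 is near the background. cyp19a1b, which encodes brain aromatase, had 1720, 796 and 677 CPM in female controls, 698, 994 and 1090 in male controls, 988, 716 and 1210 in females at 40 µg/L and 1000, 559 and 956 in males at 40 µg/L. All 4 groups overlapped, and its interaction was 0.02 ± 0.49, a value whose sign changed with the settings. The estrogen receptor gene esr2a had 0.181, 0 and 0.567 CPM in female controls, under their floors of 0.972 to 1.57 CPM, and 5.47, 5.12 and 3.72 CPM in male controls, above their floors of 0.486 to 0.604 CPM. The sexes did not overlap in the controls, where its sex difference did not pass (adjusted p = 0.276, edgeR). It had 1.13, 2.03 and 0 CPM in females at 40 µg/L and was at 0 in all males at 40 µg/L, so no fold is given at that dose.

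Of 42 circadian clock genes, 14 were higher in females in the controls and 24 at 40 µg/L, with medians of -0.23 and 0.07, the latter 0 with upper-quartile scaling and 0.02 to 0.14 when single libraries were left out. The clock repressor gene nr1d1 had 557, 611 and 531 CPM in female controls, 242, 241 and 348 in male controls, 118, 86.2 and 95.9 in females at 40 µg/L and 91.5, 62.5 and 137 in males at 40 µg/L. Females were above males in the controls only, and both sexes were lower at 40 µg/L than in their controls without overlap. Its sex difference was 1.03 ± 0.26 (adjusted p = 0.0434, edgeR) in the controls and 0.04 ± 0.25 at 40 µg/L, with an interaction of -0.99 ± 0.36 (adjusted p = 0.247). arntl1a, for the clock activator BMAL1, had sex differences of 0.59 ± 0.18 and -0.1 ± 0.18. tefa, a clock output transcription factor gene, went the other way, with sex differences of -1.1 ± 0.26 (adjusted p = 0.0353) in the controls and 0.06 ± 0.25 at 40 µg/L. bhlhe40, a clock repressor gene and the list's member with the highest CPM, had an interaction of -0.18 ± 0.18; 8 of the 42 genes had a positive and 2 a negative interaction at an unadjusted p under 0.05, against 7.94% and 6.58% of all tested genes. The hour at which brains were taken is not given, so its part in these levels cannot be told apart from the groups.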

How the data were processed

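Brain poly(A) RNA was measured in 15 libraries, of which the 12 at 0 and 40 µg/L were used here. The deposited values are raw counts per gene, whole numbers for 14971 genes, in which 44.3% of the values up to 40 are multiples of 4. The submitters' processing notes name STAR, StringTie, Picard, FastQC and DESeq2 without versions. No source used here states the genome build. A second deposited table with the females at 200 µg/L was not used. Columns were matched to samples by the library names in the labels.

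The 12 libraries were fitted in 1 model of group means with edgeR 4.0.16 in R 4.3.3 (filterByExpr, TMM factors, robust quasi-likelihood test, Benjamini-Hochberg adjustment, threshold 0.05), which kept 13149 genes. Sex differences are female minus male. The standard error is the log2 fold change divided by the square root of F. The spread of a gene is estimated once over all groups, so a standard error does not show the spread of the groups it compares. CPM are the counts scaled with TMM factors. The 3 libraries of each group share no pairing that the labels state. Alternatives were DESeq2 1.42.0, limma-voom (limma 3.58.1), other scalings, filters, dispersion and thresholds, a block, a covariate, counts divided by 4 and each library left out; thinning to equal depth was chosen after the data were seen. The code was tested on simulated data.

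The comparison, the lists and the naming rule were chosen with earlier results of these data known. Genes were named by the smallest p of the interaction (6 in each direction) and of the control difference (6 in each direction), and, for lists described at length, by the smallest interaction p and the highest CPM; list members called in the controls, members outside the pattern and the clock genes were added after their values were seen. Some genes that the rule selects are not reported here. Lists are described by counts and medians, with no test of the list. Of the symbols, 14037 (93.8%) matched the RefSeq gene table, used for names only.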

Additional observations from a re-analysis of the deposited data

How the results depend on the processing

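The count of interaction calls stayed at 0 under median-of-ratios and upper-quartile factors, both limma-voom fits, no filter, a filter of 1 CPM, non-robust dispersion, the covariate, counts divided by 4 and thinning; it was 456 with DESeq2 and 2 at an adjusted p under 0.1, and 0 to 369 when single libraries were left out. Control calls numbered 1678 with DESeq2, 2610 with limma-voom and sample weights, 1982 from the 6 control libraries alone, 1322 at an adjusted p under 0.1, 0 under 0.01, and 0 to 904 without single libraries. Calls at 40 µg/L numbered 2, both lower in females, from the 6 libraries at that dose alone, 359 with DESeq2, 19 with limma-voom, 0 with sample weights, the rare-gene covariate, counts divided by 4, thinning or an adjusted p under 0.01, and 0 to 171 without single libraries. Control genes of opposite direction at 40 µg/L numbered 583 of 1678 with DESeq2, 898 of 2610 with sample weights and 702 of 1982 from the control libraries alone. Without single libraries they numbered 0 to 388, the highest out of 781 control calls. The cause was not tested. DESeq2 tested 12445 genes for the interaction, and 101 (22.1%) of its 456 calls were at 0 in all males at 40 µg/L. Of the 13149 genes that entered its fit, 765 were at 0 in these males.

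Whether the replicate numbers pair the libraries cannot be settled from these values. Of 18 pairs with the same number, 1 had deviations correlated above 0.1 (-0.12 to 0.17). The 36 pairs with other numbers ran from -0.12 to 0.14, and 7 of 12 libraries correlated best with their own number. With the replicate block the interaction called 0 genes, the controls 283, 40 µg/L 0, and 61 of the 283 were opposite.

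Single values of cyp19a1b changed sign: its interaction was -0.02 with upper-quartile factors and ran from -0.22 to 0.55 without single libraries. That of aldocb was -0.06 with the covariate. No other interaction of the 70 genes followed here changed sign; of the 70, 50 passed with DESeq2 and 38 without male 40 µg/L replicate 2. Other scalings moved the median interaction of all genes, 0.09, to 0.06 at the lowest; limma-voom gave 0.24 and the covariate -0.11.

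With 3 libraries a group and a common biological coefficient of variation of 0.739, small differences could not be detected. Depth coincides with sex in the controls, and genes under the floors cannot be compared in males at 40 µg/L.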

Other observations

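Other lists showed the range of sex differences beyond those above. Blood genes had the widest difference in the controls, with 0 of 19 higher in females and a median of -2.21, and 6 of 19 and -0.42 at 40 µg/L. The control median was -1.32 without male control replicate 2, and that at 40 µg/L was -1.01 without female 40 µg/L replicate 1 and 0.05 without female 40 µg/L replicate 2. hbba1, a haemoglobin gene, had 1410, 627 and 849 CPM in female controls, 4670, 3550 and 857 in male controls, 8840, 1370 and 3580 in females at 40 µg/L and 3050, 8280 and 3620 in males at 40 µg/L. Male libraries at 40 µg/L were above the female controls, and every other pair of groups overlapped. Its interaction was 1.53 ± 1.04 (adjusted p = 0.539, edgeR). All 4 blood markers were detected, with sums of 879 to 1990 CPM in female controls, 1120 to 7180 in male controls, 1810 to 12500 in females at 40 µg/L and 5410 to 10600 in males at 40 µg/L.

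The suppressor of cytokine signalling gene socs3a had 13, 16.6 and 7.62 CPM in female controls, 4.68, 17.7 and 18.2 in male controls, 16.4, 27.1 and 19.7 in females at 40 µg/L and 134, 125 and 107 in males at 40 µg/L. Males at 40 µg/L were far above the rest, and its interaction was -2.41 ± 0.62 (adjusted p = 0.179). pmch, for the hypothalamic melanin-concentrating hormone, had 111, 28.8 and 27.2 CPM in female controls, 30.7, 27.5 and 36.4 in male controls, 8.91, 11.2 and 3.93 in females at 40 µg/L and 21.6, 49.3 and 69.6 in males at 40 µg/L. Here the females at 40 µg/L were below all other libraries, and the interaction was -3.37 ± 0.83 (adjusted p = 0.179). The other lists had median interactions between -0.62 (skeletal muscle) and 0.86 (gonadotropin releasing hormone and kisspeptin genes).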
